A study of Homo sapiens with 6 samples.

Results

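The constructs described here carry 2 guide RNAs against one and the same gene, so that Cas9 could cut that gene at 2 places in a cell that took up the construct. They were chosen from the guide names alone, as the guide pairs in which both names give the same gene symbol and neither is a non-targeting guide. There were 1751 such same-gene constructs among 863546 guide pairs with reads, and they covered all 459 genes of the library. The same guides were also paired with non-targeting guides in 54242 control-paired constructs, in which only one guide of the pair has a target. Their values are given beside the same-gene constructs for the classes, the tests of difference and part of the genes and lists. Reads were also counted for 878 constructs whose guides were both non-targeting and for 806675 constructs against a pair of different genes.

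The screen was run in eHAP iCas9 cells, clone 6, human cells that descend from HAP1, a near-haploid leukemia line, with Cas9 under the control of doxycycline and no p53. Doxycycline was given for 7 days and then withdrawn, in a protocol the labels state once for all samples without saying when day 0 was sampled relative to it. All 6 libraries come from this clone, so p53 was missing in every group and results hold for one clone. There were 2 libraries from day 0, 2 from day 14 of standard growth (12 population doublings) and 2 from day 15 with repeated irradiation (10 population doublings), in which 0.6 Gy of X-rays was given 24 hours after each split. Genomic DNA was extracted from pooled cells of each condition, the guide locus was amplified by PCR, and a construct's read count serves as the measure of how many cells held it. Nothing in the labels says that replicates came from separate transductions, so the spread between them may be partly technical.

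A cut by Cas9 is repaired in most cases by end joining, which can leave a small insertion or deletion that breaks the reading frame. With a pair of guides against the same gene, the chance that at least one cut disables it is higher, and the stretch between both sites can be lost. The cost is a second double-strand break, which cells that repair breaks poorly, or that stop dividing on damage, may not tolerate. The genes of this library work in the repair of such breaks and of other DNA damage, in replication and in chromatin.

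Position 1 of a construct held sg1 or sg2 of a gene and position 2 held sg3 or sg4, so a gene could have 4 same-gene constructs. Of 1816 pairs that the guides seen in the library allow, 65 had no reads in any library. All 4 constructs were read for 404 genes, 3 for 26 genes and 2 for 28 genes, among them Brca1, Blm, Pola1, Xrcc1, Xrcc2 and Xpa, and Cdc5l had 1. The 4 combinations were almost equally represented, with 437 constructs of sg1 with sg3, 439 of sg1 with sg4, 435 of sg2 with sg3 and 440 of sg2 with sg4. Constructs of one gene share guides pairwise and are not independent of each other.

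Coverage of the same-gene constructs was uneven within groups. Of the 1751 constructs, 4.11% and 2.00% had no reads in day 0 replicates 1 and 2. At day 14 the shares were 51.8% in replicate 1 and 4.85% in replicate 2, and after irradiation 6.51% in replicate 1 and 47.1% in replicate 2. Day 14 replicate 1 and irradiated replicate 2 are therefore called the incomplete libraries. The libraries as a whole held 61185707 to 86587125 reads, and the same libraries were incomplete for different-gene constructs (53.5% and 48.9% without reads). Only 668 same-gene constructs had reads in all 6 libraries. Log2 counts of the 1751 constructs correlated at r = 0.87 between day 0 replicate 2 and day 14 replicate 2, at r = 0.82 between day 0 replicate 2 and irradiated replicate 1, and at r = 0.69 between both incomplete libraries, while r was 0.39 within the day 14 pair and 0.40 within the irradiated pair. These are descriptions over constructs that share guides and libraries. Results are given with all 6 libraries and, in many cases, again with the 4 complete ones. In the latter each of day 14 and irradiation is a lone library assumed to vary as the day 0 pair does.

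As a class, the same-gene constructs held almost the same share of reads in every group. That share of all reads was 0.204% and 0.205% at day 0, 0.204% and 0.205% at day 14, and 0.201% and 0.216% after irradiation, and the groups overlap. Scaled to the reads of constructs with 2 non-targeting guides, they held 3.33 and 3.27 reads per such read at day 0, 3.73 and 3.29 at day 14, and 3.21 and 3.60 after irradiation. Both high values are from the incomplete libraries. The log2 change was 0.09 (pooled SD 0.09) at day 14 and 0.04 (pooled SD 0.08) after irradiation against day 0, and -0.04 (pooled SD 0.12) between irradiation and day 14. In exact permutation tests over libraries, two-sided, p was 0.667, 1.00 and 0.667, where 2 against 2 libraries cannot go below 0.333. Control-paired constructs stood at 0.08, 0.01 and -0.07 on the same scale. Different-gene constructs, which also carry cuts by 2 guides but in separate genes, stood at 0.09, 0.02 and -0.07.

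As a total, same-gene constructs were close to the number expected from their guides' totals with gene-targeting partners, while single constructs spread widely around it. From the total of each guide over all gene-targeting partners, the same-gene constructs held 99.1% and 99.7% of the expected reads at day 0, 99.0% and 99.8% at day 14, and 97.7% and 105% after irradiation. The value for irradiated replicate 1 is the lowest of the 6 and that for irradiated replicate 2 the highest, so the irradiated libraries lie on both sides of the others. In the complete day 14 library the median log2 ratio of observed to expected reads was -0.18 for same-gene and -0.18 for different-gene constructs, and in the complete irradiated library it was -0.30 (quartiles -1.17 to 0.36) and -0.28. In the incomplete libraries the median for same-gene constructs was -4.84 (quartiles -6.25 to -0.23) at day 14 and -3.36 (quartiles -6.54 to 0.28) after irradiation.

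Between genes abundance ranged widely. Summed over a gene's constructs, the median was 297 reads in day 0 replicate 1, 310 in day 0 replicate 2, 212 in day 14 replicate 2 and 253 in irradiated replicate 1. At the low end, Ino80, the ATPase of a nucleosome remodeller, had 0 to 8 reads per library and Meioc, a meiosis gene, 0 to 46, and both fell below the minimum mean of 20 reads, which left 457 genes for the tests.

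In the incomplete libraries a gene's sum came mostly from a single construct. Among the 404 genes with 4 constructs, the most abundant construct held a median of 45.2% and 43.0% of the gene's reads at day 0, 46.7% in day 14 replicate 2 and 49.0% in irradiated replicate 1, but 86.7% in day 14 replicate 1 and 75.9% in irradiated replicate 2. In these last libraries 47 and 36 of the 404 genes had no reads from any of the 4 constructs. The 459 sums of control-paired constructs, which rest on many more constructs per gene, correlated at r = 0.83 between day 0 replicate 2 and day 14 replicate 1, against 0.56 for the same-gene sums.

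The first comparison asks which genes lose or gain cells during standard growth when both guides cut the gene. edgeR's quasi-likelihood test with Benjamini-Hochberg adjustment, run over 106027 sums per pair of genes, called 0 of the 457 same-gene sums at day 14 against day 0 (0.0% of all sums were called), with a smallest adjusted p of 0.983. At an unadjusted p under 0.05 there were 4 of 457 against 0.553% of all sums, and DESeq2 called 0, with 13 below (2.84%, against 4.17% of all sums). The median log2 change was -0.11 for the same-gene sums and -0.03 for all sums, and 255 of 457 were lower. The day 14 and day 0 libraries did not overlap for 90 genes that were lower and 57 that were higher, or 19.7% and 12.5%, where all sums gave 18.1% and 14.6%. Of all sums, 105111 are different-gene sums, over 806675 constructs, while a same-gene sum holds at most 4. The same-gene sums spread more widely (quartiles -0.82 to 0.52, against -0.46 to 0.39 for all sums). Values set beside all sums, here and below, are therefore not from sums of like size. Half-widths of the 95% intervals had a median of 2.29 on the log2 scale, so a 4-fold change (2 on that scale) of a typical gene lies within its error.

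Among the genes on the low side at day 14, Nipbl, which loads cohesin onto chromosomes, had 626 and 481 reads at day 0, 125 and 231 at day 14, and 395 and 901 after irradiation. Scaled to the same non-targeting reads, both day 14 libraries lie below all the others. Its log2 change was -1.10 (SE 0.61, 95% interval -2.53 to 0.33, n = 2 libraries per group), or -0.79 in the complete libraries, while its control-paired constructs stood at 0.23. Within the gene, sg1 with sg4 went from 266 and 229 reads at day 0 to 124 and 55 at day 14, and sg2 with sg4 from 202 and 181 to 0 and 154. Mta1, a subunit of the NuRD chromatin remodeller, had 719 and 542 reads at day 0 and 99 and 263 at day 14, a change of -1.28 (SE 0.68). Ggn, a germ cell gene, had 846 and 384 at day 0, 17 and 166 at day 14, but 226 and 1118 after irradiation. Its change at day 14 was -2.26 (SE 1.15), and -1.42 in the complete libraries. Cenps, a histone-fold protein of the Fanconi anemia pathway, went from 1347 and 1037 reads to 433 and 580, at -0.69 (SE 0.39). Rpa1, the large subunit of the protein that coats single-stranded DNA, went from 719 and 704 to 174 and 386, at -0.81 (SE 0.54) and at -0.41 in the complete libraries. Non-overlap of the compared groups was a condition for naming these genes, and the genes of smallest p further on, so it is no result. None of them passed the test.

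On the high side at day 14, Neil3, a DNA glycosylase that removes oxidised bases, was the most even. It had 663 and 996 reads at day 0, 1021 and 1088 at day 14, and 1220 and 1349 after irradiation. Per 1000 reads of constructs with 2 non-targeting guides this was 12.8 and 18.4 at day 0, 30.2 and 28.6 at day 14, and 27.2 and 26.0 after irradiation, so day 0 lies lowest and day 14 highest. Its change at day 14 was 0.91 (SE 0.36, 95% interval 0.07 to 1.76), or 0.87 in the complete libraries, against 0.26 for its control-paired constructs. Construct sg2 with sg3 carried most of it, with 331 and 534 reads at day 0 and 802 and 683 at day 14, while sg2 with sg4 went from 115 and 107 to 0 and 103. Trex1, a 3' exonuclease that degrades stray DNA, had 323 and 609 reads at day 0, 957 and 535 at day 14 and 471 and 604 after irradiation, a change of 1.28 (SE 0.54) that came to 0.68 in the complete libraries. Gtf2h2, a subunit of the repair and transcription factor TFIIH, stood at 2.87 (SE 1.01), with 80 and 178 reads at day 0 and 1041 and 172 at day 14. All 1041 reads of day 14 replicate 1 came from the single construct sg2 with sg3, and without that library the change was 0.90. Wrap53, a telomerase-trafficking factor, and Ube2v1, a partner of a ubiquitin-conjugating enzyme, stood at 2.06 (SE 0.98) and 1.48 (SE 0.79), and at 0.83 and 0.68 in the complete libraries. All 5 of these genes had a position 2 guide that was low in day 0 replicate 1 with non-targeting partners too, as described further on, and 0 of the 5 genes named on the low side had one. The part of that library in these values was not tested beyond leaving it out, which gave 0.68 for Neil3, 0.91 for Trex1 and 2.42 for Gtf2h2. When each construct was given equal weight (the mean of log2 values over constructs, fitted with limma), the median of all sums was itself -1.26, and Neil3, Gtf2h2 and Wrap53 lay 1.13, 1.18 and 0.92 above that median, against 0.94, 2.90 and 2.08 above it in the sums.

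By function, the same-gene sums split as follows at day 14, and none of the members passed the test. The lists share members, such as Ercc4 (nucleotide excision repair and nucleases) and Parp1 (base excision repair and alternative end joining). They are therefore not independent of each other. Of the 16 cohesin and SMC5/6 genes, which hold sister chromatids together and act on joined DNA molecules, 12 stood lower, at a median of -0.86 against -0.03 for all sums, and a median of -0.46 with 12 of 16 lower in the complete libraries. The control-paired constructs of the same genes had a median of 0.001. Smc5 went from 1404 and 718 reads at day 0 to 447 and 490 at day 14, at -0.63 (SE 0.47), but day 0 replicate 1 stood apart and without it the change was -0.02. Of the 22 Fanconi anemia genes, which repair cross-linked DNA, 18 were lower, with a median of -0.53, but 13 of 22 and a median of -0.10 in the complete libraries. Fancd2, the protein that is ubiquitinated in this pathway, stood on the other side at 0.90 (SE 0.53). The 20 structure-specific nucleases had 13 lower, a median of -0.38 and, in the complete libraries, -0.33. Among them Dclre1b (Apollo), a telomere nuclease, had 334 and 167 reads at day 0 and 3 and 54 at day 14.

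The 24 genes of nucleotide excision repair, which removes bulky lesions, had 16 higher and 8 lower, with a median of 0.47, and of 0.21 with 5 lower in the complete libraries. Of these 24 genes, 11 had a position 2 guide that was low in day 0 replicate 1, and without that library the median was 0.11, still with 16 higher. Ercc6, one of the 11, the transcription-coupled repair factor CSB, had 101 and 137 reads at day 0 and 366 and 201 at day 14, at 1.84 (SE 1.11), or 1.67 without day 0 replicate 1. The 29 genes of core replication had 16 members lower, at a median of -0.34, or 0.09 in the complete libraries and -0.16 without day 0 replicate 1. Pola1, which encodes the polymerase alpha subunit that extends primers, stood at -0.87 (SE 0.80) and at -0.34 in the complete libraries, and Mcm7, a subunit of the replicative helicase, at 1.45 (SE 0.93) and 0.32. Pcna, the sliding clamp, had 156 and 296 reads at day 0 but 1 and 209 at day 14, so its replicates lie on both sides. The checkpoint genes of the ATR kinase and the 9-1-1 clamp had 9 of 12 lower, with a median of -0.57 and, in the complete libraries, of -0.04 with 6 of 12 lower. Chek1, the kinase activated by ATR, had 312 and 265 reads at day 0 and 85 and 105 at day 14, at -1.05 (SE 0.98) and -0.98.

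Among break repair genes, the 16 of non-homologous end joining had 7 lower (median 0.05), and the 32 of homologous recombination 17 lower (median -0.005). In the complete libraries 9 and 20 were lower, with medians of -0.09 for both lists. Lig4, the ligase that seals joined ends, had 318 and 260 reads at day 0, 133 and 105 at day 14, and 122 and 37 after irradiation, and every later library lies below both day 0 libraries. Its change at day 14 was -0.71 (SE 1.25). Its partner Xrcc4 stood at 1.42 (SE 0.80) and at 0.27 in the complete libraries, and the Ku genes Xrcc5 and Xrcc6 at 1.24 and -0.07, or -0.33 and 0.52 in the complete ones. Brca2, a mediator of homologous recombination, had 661 and 541 reads at day 0, 200 and 273 at day 14, and 330 and 410 after irradiation, with no overlap at -0.80 (SE 0.56) and -0.66, while its control-paired constructs stood at 0.26. Brca1, a ubiquitin ligase subunit that acts in the same pathway and was read from 2 constructs, had 258 and 304 reads at day 0 and 1 and 182 at day 14. In the MRE11 complex and damage kinases 7 of 9 were lower, with a median of -0.51, among them Rad50 at -0.51 (SE 0.45) and Atm, the break-signalling kinase, at -1.09 (SE 1.42), with 505 and 414 reads at day 0 and 29 and 279 at day 14.

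In the remaining lists the members lay on both sides. Base excision repair and PARP genes had 11 of 27 lower (median 0.08), mismatch repair 5 of 10 (median -0.20), the 53BP1 and shieldin group, which protects ends from resection, 5 of 12 (median 0.41, and 0.11 without day 0 replicate 1), alternative end joining and translesion synthesis 7 of 18 (median 0.15), and chromatin remodelling and chaperones 13 of 20 tested (median -0.12). In the complete libraries these lists had 13, 4, 4, 11 and 10 members lower, with medians of 0.02, 0.13, 0.08, -0.10 and 0.002. The control-paired medians of all 14 lists lay between -0.02 and 0.14 at day 14 against day 0, from sums over many more constructs per gene. Trp53, the gene of p53, which these cells lack, had 272 and 436 reads at day 0, 99 and 343 at day 14, and 392 and 97 after irradiation, so its replicates were farther apart than its groups.

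The second comparison sets the irradiated cells against day 0. edgeR called 0 of 457 same-gene sums (0.0% of all sums were called), with a smallest adjusted p of 1.00, and 1 lay below an unadjusted p of 0.05, where 0.352% of all sums did, while DESeq2 called 0, with 13 below (2.84%, against 3.31% of all sums). The irradiated libraries did not overlap with day 0 for 101 genes that were lower (22.1%, against 21.3% of all sums) and 65 that were higher (14.2%, against 13.2%). The median change was -0.09, beside -0.07 for all sums. This contrast shares its day 0 libraries with the first one, so the values of a gene in both are not independent.

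Parp1, the enzyme that marks broken DNA with poly(ADP-ribose), was the gene on the low side with the smallest unadjusted p. It had 618 and 503 reads at day 0, 452 and 344 at day 14, and 211 and 215 after irradiation. Per 1000 reads of constructs with 2 non-targeting guides this was 11.9 and 9.28 at day 0, 13.4 and 9.03 at day 14, and 4.71 and 4.14 after irradiation. Both irradiated libraries lie below all the others, and day 0 and day 14 overlap. The change against day 0 was -1.26 (SE 0.57, 95% interval -2.61 to 0.09) and -1.17 in the complete libraries, with -0.12 and 0.08 for its control-paired constructs. In the complete libraries all 4 constructs were lower than in day 0 replicate 2: sg1 with sg3 had 108 reads there and 22 in irradiated replicate 1, sg1 with sg4 152 and 80, sg2 with sg3 82 and 30, and sg2 with sg4 161 and 79. In irradiated replicate 2 the same constructs had 206, 0, 0 and 9 reads, so 1 construct carried nearly all of that library's sum. The 4 guides of Parp1 held 3891, 2964, 1455 and 2603 reads with non-targeting partners in day 0 replicate 1 and 4154, 2744, 1035 and 2152 in irradiated replicate 1. These guide and construct counts are unscaled, and their day 0 library differs (replicate 1 for guides, replicate 2 for constructs). Constructs with 2 non-targeting guides held 51867 and 54183 reads in day 0 replicates 1 and 2, and 44825 in irradiated replicate 1.

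Cbx8, a Polycomb subunit, had 860 and 793 reads at day 0, 466 and 576 at day 14, and 503 and 281 after irradiation, at -0.91 (SE 0.51) and -0.48 in the complete libraries. Rev3l, the catalytic subunit of polymerase zeta, which copies past lesions, had 649 and 481 at day 0 and 304 and 81 after irradiation, at -1.36 (SE 0.99) and -0.66. Lig4 stood at -1.67 (SE 1.27), with 0.05 for its control-paired constructs. Its construct sg2 with sg3 had 74 and 82 reads at day 0, 50 and 11 at day 14 and 13 and 37 after irradiation. Smc5, a core subunit of the SMC5/6 complex, stood at -0.75 (SE 0.47), and at -0.15 without day 0 replicate 1.

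On the high side, Neil3 stood at 0.77 (SE 0.36) and 0.80 in the complete libraries. Spire1, an actin nucleator, had 223 and 438 reads at day 0, 417 and 332 at day 14, and 398 and 1763 after irradiation, at 1.79 (SE 0.72), and at 0.52 without irradiated replicate 2. Yy1, a transcription factor that also acts with the INO80 remodeller, stood at 1.78 (SE 0.82) and 0.47, with 1145 of its reads in irradiated replicate 2 and 248 in replicate 1. Zswim7 and Swi5, both accessory factors of homologous recombination, stood at 3.32 (SE 1.56) and 1.48 (SE 0.73), and at 1.10 and 0.63 in the complete libraries. The 712 reads of Zswim7 in irradiated replicate 2 all came from sg1 with sg4, which had 0 and 7 reads at day 0. As at day 14, 5 of the 5 genes named on the high side, and 0 of the 5 on the low side, had a position 2 guide that was low in day 0 replicate 1, beside 112 of all 459 genes.

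By function, 13 of 16 cohesin and SMC5/6 genes were lower after irradiation, with a median of -0.66 and, in the complete libraries, of -0.23 with 12 lower. Without day 0 replicate 1 the median was -0.24, with 13 lower. Smc1a, a cohesin subunit, had 451 and 210 reads at day 0, 3 and 139 at day 14, and 74 and 0 after irradiation, and its change in the complete libraries was -1.93. The structure-specific nucleases had 14 of 20 lower, with a median of -0.37, and 16 of 20 with a median of -0.31 in the complete libraries. Among them Dclre1c (Artemis), which opens hairpin ends in end joining, had 251 and 243 reads at day 0, 31 and 79 at day 14, and 88 and 41 after irradiation, and its change was -1.76 (SE 1.56), or -1.25 in the complete libraries. Fanconi anemia genes had 15 of 22 lower (median -0.21), but 10 of 22 (median 0.05) without day 0 replicate 1, with Fanci at 252 and 160 reads at day 0 and 34 and 0 after irradiation. Nucleotide excision repair had 18 of 24 higher (median 0.29, and 0.11 in the complete libraries), with Ddb1, an adaptor of a ubiquitin ligase that senses ultraviolet damage, at 0.79 (SE 0.62) and 0.78, and at 0.50 without day 0 replicate 1. Ddb1 is among the 11 of 24 genes with a low position 2 guide in that library, without which 14 of 24 were higher, at a median of 0.12.

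Non-homologous end joining, the main route for X-ray breaks, had 10 of 16 higher and 6 lower, with a median of 0.22 and of 0.01 in the complete libraries. Xrcc5 (Ku80) had 385 and 259 reads at day 0 and 104 and 1107 after irradiation, so its replicates lie on either side of day 0, and Xrcc4 stood at 0.62 (SE 0.79). Homologous recombination had 17 of 32 lower (median -0.05), with Brca2 at -0.57 (SE 0.56), and 22 of 32 lower (median -0.10) in the complete libraries. The MRE11 complex and damage kinases had 7 of 9 lower (median -0.32), with Atm at -1.30 (SE 1.43) and -0.41. In the complete libraries 5 of these 9 were lower, with a median of -0.04. The 53BP1 and shieldin group had 7 of 12 lower (median -0.07). In it Shld3, a shieldin subunit, had 369 and 250 reads at day 0, 24 and 117 at day 14, and 99 and 64 after irradiation, with no overlap at -1.77 (SE 1.39), and Trp53bp1 (53BP1) stood at 1.04 (SE 0.69). Of the other lists, core replication had 12 of 29 lower (median 0.07), the ATR and 9-1-1 checkpoint 7 of 12 (median -0.15, and 0.02 with 5 lower without day 0 replicate 1), base excision repair and PARP 12 of 27 (median 0.11), mismatch repair 5 of 10 (median -0.03), alternative end joining and translesion synthesis 11 of 18 (median -0.12), and chromatin remodelling and chaperones 13 of 20 (median -0.24).

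The third comparison, irradiated against day 14, asks what irradiation adds to growth, although the groups also differ by a day and in population doublings. edgeR called 0 of 457 same-gene sums (0.0% of all sums were called), and 0 lay below an unadjusted p of 0.05, where 0.849% of all sums did. DESeq2 called 0, with 12 below (2.63%, against 4.83% of all sums). The groups did not overlap for 47 genes that were lower (10.3%, against 11.9% of all sums) and 34 that were higher (7.44%, against 8.7%). Parp1 was again the gene of smallest p on the low side, at -1.34 (SE 0.57) and -0.94 in the complete libraries. Fzr1, an activator of the anaphase-promoting complex, had 472 and 340 reads at day 14 and 272 and 114 after irradiation, at -1.47 (SE 0.74) and -0.56. Shld2, a shieldin subunit, had 588 and 273 at day 14 and 272 and 134 after irradiation, at -1.50 (SE 0.76) and -0.24. Gtf2h2 and Trex1 stood at -2.15 (SE 0.98) and -0.93 (SE 0.54), and at -0.03 and -0.42 in the complete libraries.

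On the high side of this comparison, Nipbl stood at 1.42 (SE 0.61, 95% interval -0.02 to 2.87) and 0.54, and Ggn at 2.45 (SE 1.16) and 0.21. Atr, the kinase that answers stalled replication, had 170 and 191 reads at day 0, 33 and 97 at day 14, and 194 and 627 after irradiation, at 2.22 (SE 1.13) and 0.76. Its downstream kinase Chek1 stood at 1.74 (SE 1.00) and 0.16, and 748 of its 754 reads in irradiated replicate 2 came from sg2 with sg3. Ube2b, a ubiquitin-conjugating enzyme of lesion bypass, had 212 and 561 reads at day 14 and 867 and 992 after irradiation, at 0.87 (SE 0.51) and 0.39. Among the lists, alternative end joining and translesion synthesis had 14 of 18 lower (median -0.35), base excision repair and PARP 17 of 27 (median -0.23), nucleotide excision repair 15 of 24 (median -0.31) and non-homologous end joining 9 of 16 (median -0.12), while 15 of 22 Fanconi anemia genes (median 0.24) and 17 of 29 core replication genes (median 0.19) were higher. In the complete libraries the medians of these lists were -0.05, -0.07, -0.004, -0.07, -0.15 and -0.02. Of the others, chromatin remodelling had 11 of 20 lower, cohesin and SMC5/6 9 of 16, structure-specific nucleases 10 of 20, homologous recombination 15 of 32, the checkpoint 5 of 12, the 53BP1 and shieldin group 6 of 12, mismatch repair 6 of 10, and the MRE11 group 3 of 9.

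Whether same-gene constructs differed in their change from the same guides with a non-targeting partner was tested for each gene in 1 model over both kinds of construct, with the library as a block. edgeR called 0 of 457 genes in each of the 3 comparisons (0.0% called) and 0 lay below an unadjusted p of 0.05. DESeq2 called 0 and had 20, 15 and 26 below (4.38%, 3.28% and 5.69%). The smallest adjusted p values were 0.906, 0.998 and 0.996. The median 95% half-width of the difference was 2.40, 2.40 and 2.45, so a 4-fold difference (2 on that scale) lies within the error of a typical gene. In this model the difference at day 14 against day 0 was negative for 283 of 457 genes, with a median of -0.23, and the medians were -0.15 after irradiation against day 0 and 0.03 against day 14. In the complete libraries the median differences were -0.002, -0.03 and -0.03. The model compares both kinds within each library, so its difference need not equal that between the separately fitted changes. For the 22 Fanconi anemia genes at day 14 its median was -1.80 with all 6 libraries, where the same-gene and control-paired medians were -0.53 and -0.001. In the complete libraries the same-gene median of these genes was -0.10. The difference was -1.04 (SE 0.43) at day 14 for Brca2, -1.32 (SE 0.62) for Nipbl and 0.69 (SE 0.34) for Neil3. For Suv39h1, a histone methyltransferase, it rests on 24 and 47 same-gene reads at day 0 against 0 and 1 at day 14, and no fold is given. After irradiation against day 0 the difference was -1.12 (SE 0.50) for Parp1, -2.01 (SE 0.96) for Lig4, -1.42 (SE 0.67) for the condensin gene Smc2, -1.37 (SE 0.65) for the uracil glycosylase gene Smug1 and 0.68 (SE 0.37) for the exonuclease gene Rexo4. Against day 14 it was -1.46 (SE 0.64) for Fzr1, -0.80 (SE 0.36) for the meiotic gene Meiob and 1.60 (SE 0.63) for Nipbl. With both incomplete libraries left out, 7 of 21, 7 of 22 and 2 of 21 differences chosen by the naming rule changed sign in the 3 comparisons.

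Gene by gene, the relation between the changes of both kinds of construct differed with the day 0 library used. Over 459 genes, the log2 change from day 0 replicate 2 to day 14 replicate 2 had an SD of 0.46 for same-gene sums and 0.09 for control-paired sums, and r between them was 0.06. For irradiated replicate 1 the SDs were 0.57 and 0.12, and r was -0.05. Genes whose same-gene sum differed by more than 2-fold numbered 11 lower and 9 higher at day 14 and 35 lower and 6 higher after irradiation, and 0 control-paired sums did so in either. Against day 0 replicate 1, r was 0.42 for day 14 replicate 2 and 0.30 for irradiated replicate 1. The counts were then 37 lower and 53 higher at day 14 and 50 lower and 46 higher after irradiation, and day 0 replicate 1 itself had 39 genes lower and 18 higher than replicate 2. These are values of single libraries over genes, with no test. Control-paired sums rest on many more constructs per gene than same-gene sums, so their SDs and counts are not directly comparable. For single constructs with at least 50 reads in day 0 replicate 2, the SDs to day 14 replicate 2 were closer. They were 0.66 for same-gene and 0.71 and 0.72 for control-paired constructs at positions 1 and 2.

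Constructs of one gene were no closer to each other than constructs of different genes. Among 1041 same-gene constructs with at least 50 reads in day 0 replicate 2, from 352 genes with at least a pair of such constructs, the SD of the change to day 14 replicate 2 was 0.64 within genes and 0.65 overall. To irradiated replicate 1 it was 0.88 within genes and 0.87 overall. The change of a same-gene construct correlated at r = 0.08 with that of its position 1 guide and at r = 0.01 with that of its position 2 guide among control-paired constructs at day 14, over 1113 constructs, and at -0.02 and -0.01 after irradiation. The spread was also like that of other classes: at day 14 the SD of single constructs was 0.66 for same-gene, 0.67 for different-gene, 0.71 and 0.72 for control-paired constructs at positions 1 and 2, and 0.81 for constructs with 2 non-targeting guides. After irradiation 16.8% of same-gene constructs were more than 2-fold lower, against 15.9% of different-gene constructs, and 4.94% and 4.95% were more than 2-fold higher.

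Between the day 0 replicates the constructs did share a pattern. The change from replicate 2 to replicate 1 correlated at r = 0.48 between same-gene and control-paired sums over 459 genes. For single constructs with at least 50 reads in replicate 2 it correlated at r = 0.42 with that of the position 2 guide among control-paired constructs. With that of the position 1 guide r was -0.02. Of 904 position 2 guides, 163 were below -0.5 on the log2 scale in replicate 1 with non-targeting partners. Among same-gene constructs with at least 50 reads in day 0 replicate 2, the 192 with such a guide had a median of -0.74 in replicate 1 against replicate 2. The other 921 had a median of 0.04. Counted without that minimum, the low position 2 guides belong to 112 genes, among them Neil3, Trex1, Gtf2h2, Spire1, Swi5, Xrcc4 and Trp53. What set these guides apart was not tested.

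Single constructs were tested among 671663 guide pairs. edgeR called 0 of the 1387 same-gene constructs with a mean of at least 20 reads in each comparison (0.0% of all pairs were called). At an unadjusted p under 0.05 there were 3, 7 and 6, or 0.216%, 0.505% and 0.433%, beside 0.682%, 0.308% and 0.428% of all pairs, and DESeq2 called 0 in each, with 7, 15 and 10 below (0.505%, 1.08% and 0.721%, beside 0.801%, 0.684% and 0.855% of all pairs). At day 14 the constructs of smallest p were Gtf2h2 sg2 with sg3, Eid3 sg2 with sg4 and Wrap53 sg2 with sg4, with 1041, 837 and 596 reads in day 14 replicate 1 and 91, 73 and 89 in replicate 2. After irradiation they were Trp53bp1 sg2 with sg4, with 36 and 28 reads at day 0 and 49 and 798 after irradiation, Pttg1 sg1 with sg3, with 97 and 223 against 283 and 1099, and Ube2v1 sg1 with sg3, with 15 and 34 against 23 and 721. For irradiated against day 14 they were Abraxas1 sg1 with sg4 and Rad54l sg1 with sg3, which had 129 and 38, and 161 and 23, reads at day 14 and 0 in both irradiated libraries, and Ggn sg2 with sg4. In each of these 9 constructs the highest count was that of an incomplete library.

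Complete loss of an abundant construct was rare. Of 900 same-gene constructs with at least 50 reads in both day 0 libraries, 0 had no reads in day 14 replicate 2, which allows a share of up to 0.333% by counting error alone, and 1, Dmc1 sg1 with sg4, had none in irradiated replicate 1, where it went from 62 and 57 reads at day 0 to 0, with 27 in day 14 replicate 2. A further 6 constructs had 1 to 5 reads in either of these libraries. Trp53bp1 sg2 with sg3 had 62 and 53 reads at day 0, 2 in day 14 replicate 2 and 5 in irradiated replicate 1, and Bach1 sg1 with sg3 had 94 and 58 at day 0, 49 and then 1. In the incomplete libraries 300 of the 900 (33.3%) were without reads at day 14 and 269 (29.9%) after irradiation, and for different-gene constructs the shares were 34.8% and 30.2%.

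Without both incomplete libraries the intervals narrow, and edgeR called 1 same-gene sum at day 14 against day 0 (0.05% of all sums were called) and 1 after irradiation against day 0 (0.245% of all sums), and 0 between irradiation and day 14 (0.0406% of all sums). Below an unadjusted p of 0.05 lay 31, 45 and 11 of 457, beside 2.88%, 6.68% and 2.13% of all sums. Zbtb1, a zinc finger protein of the replication stress response, had 703 and 921 reads at day 0, 373 and 1591 at day 14, and 825 and 932 after irradiation, a change of 1.45 (SE 0.29, adjusted p = 0.00195 by edgeR). Its construct sg1 with sg4 had 285 and 507 reads at day 0 and 1262 in day 14 replicate 2, while sg2 with sg4 had 337, 356 and 297. With the incomplete library included, which held 49 reads of sg1 with sg4, the change was 0.79 (SE 0.61). Parp10, a mono-ADP-ribosyltransferase, had 201 and 82 reads at day 0, 58 in day 14 replicate 2 and 5 in irradiated replicate 1, a change of -4.56 (SE 1.02, adjusted p = 0.00524 by edgeR). Nearly all its reads are of sg1 with sg4, since its other constructs had at most 2 reads in any library, and irradiated replicate 2 had 146 reads of it. Both genes were chosen for the text after their values were seen, and each call rests on 1 construct in 1 library. For the difference from control-paired constructs the same fit called Zbtb1 at day 14 (0.219% called) and Parp10 after irradiation (0.219% called), and 0 between irradiation and day 14 (0.0% called). An unadjusted p under 0.05 was reached by 32, 51 and 14 of 457 differences, or 7.0%, 11.2% and 3.06%. Of the 1387 single constructs edgeR called 0 in this fit, where 0.0%, 0.0287% and 0.00238% of all guide pairs were called. At an unadjusted p under 0.05 there were 61, 142 and 62 of them, beside 4.12%, 9.63% and 4.97% of all pairs.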

How the data were processed

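Guide locus amplicons of 6 libraries in 3 groups of 2 (day 0, day 14, irradiated day 15) were counted. The authors deposited unnormalized counts, whole numbers of reads for each guide pair. HISAT2 2.1.0 and hg38 appear in the submitters' processing notes with no role, and the sources used here do not say how reads were assigned to guides. Pairs missing from a library were set to 0, and 2 columns that match no sample were not used. Counts agreed between single and combined tables (0 pairs differed). Guide sequences were not used here. Gene names are as in the tables, in mouse style, with 445 of 459 found among current human symbols and 9 among older ones.

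Counts were summed per gene over same-gene constructs, over control-paired constructs, and per pair of different genes. edgeR 4.0.16 (R 4.3.3) quasi-likelihood tests, two-sided, were fitted to all 6 libraries, scaled by reads of constructs with 2 non-targeting guides. Features needed a mean of at least 20 reads, and the threshold was 0.05 after Benjamini-Hochberg adjustment over the whole table. A prior count of 2 was added to the scaled log2 counts used for limma, correlations and overlap between groups. The edgeR tests kept that program's default. The difference test used 12 columns per gene. The fits were tested on simulated data. DESeq2 1.42.0, limma 3.58.1, other scalings, filters, a replicate block and left-out libraries were the alternatives. The members, the 14 gene lists and the rule for named genes were chosen with earlier results of these data known. By that rule a comparison names up to 10 called genes per direction or, where fewer than 5 were called, the 5 of smallest unadjusted p with one sign in all 4 library comparisons. It adds 3 genes per direction for the difference, up to 3 per list, called constructs or else the 3 of smallest p, and a fixed set of repair and replication genes. The text describes part of these, and some members are not reported here. In the lists, medians are over the members tested. Intervals and limits cover the model's or counting error only.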

Additional observations from a re-analysis of the deposited data

How the results depend on the processing

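The counts of 0 called same-gene sums, differences and constructs were unchanged under library totals, TMM, DESeq2, no filter and a minimum mean of 100 reads, where these were run. Without both incomplete libraries 1 gene was called at day 14 and 1 after irradiation against day 0, in the sums and in the difference alike. Leaving out each library in turn gave 0 to 4 called sums at day 14 against day 0, 0 after irradiation against day 0 and 0 to 2 between irradiation and day 14, and 0 to 6, 0 and 0 to 9 called differences. All calls in these fits came without day 14 replicate 2, which leaves the incomplete library alone at day 14, and that lone library is assumed to vary like the other groups. With equal weight for each construct (limma on mean log2 values), the median of all sums was -1.26 at day 14 and -1.10 after irradiation against day 0, and 0.14 between irradiation and day 14. Relative to it 10 of 56, 6 of 53 and 12 of 54 named genes lay on the other side than in the sums. Without both incomplete libraries 14, 13 and 12 of these named genes changed sign in edgeR. Without day 14 replicate 1 alone 14, 0 and 16 did, and without irradiated replicate 2 alone 0, 13 and 8. The class level at day 14, 0.09 with all libraries, was -0.00118 under library totals and -0.152 as a median over genes, and lay between -0.000958 and 0.177 with 1 library left out. After irradiation against day 0 it was -0.149 as a median over genes and between -0.0393 and 0.127 with 1 library left out. Between irradiation and day 14 it was 0.0286 under library totals, 0.00286 as a median over genes and between -0.133 and 0.045 with 1 library left out. With the replicate number as a block, edgeR called 0 same-gene sums, differences and constructs. Same-numbered libraries did not deviate together (r = -0.05, -0.55 and -0.03), so the numbers were not taken to pair them. The crossed pairing, added after seeing the data, also called 0. In each later group 1 library has no reads for 51.8% or 47.1% of the constructs, although these libraries hold as many reads in all as their replicates or more (61962789 against 61185707, and 86587125). List values without day 0 replicate 1 were added after seeing the data.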
